A study of Homo sapiens with 6 samples.

Results

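The genes described here were ID1, ID2, ID3, ID4, BMP2, BMP4, GREM1, SMAD6, SMAD7 and BMPR2, 10 of the 57133 gene symbols in the count table. They were chosen by symbol as components and targets of bone morphogenetic protein (BMP) signalling, and the rule itself uses no measured value, although earlier results of these data were known when the list was drawn up. RNA-seq was available for 6 libraries of T98G cells, an established human glioblastoma line in which CBX8, a chromodomain subunit of Polycomb repressive complex 1, had been knocked out with a CRISPR guide. The knockout line carried either the empty doxycycline-inducible TetO-FUW vector (CBX8 KO, 3 libraries) or the same vector with WT CBX8 (WT CBX8 re-expression, 3 libraries). Both groups thus share the knockout, the vector system with antibiotic selection and, from the labels, doxycycline at 1 μg/ml for 72 h. The genotype field calls the re-expression libraries wild type, but their titles and the study's methods describe re-expression in the knockout line, and parental T98G cells were not analysed here. Whether the knockout line is 1 clone is not given in the sources used here. It is also not given whether libraries of a group are separate cultures, so every SD and p-value describes spread between libraries, which may be technical.

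BMP ligands are secreted factors that bind a complex of type I and type II serine/threonine kinase receptors, which phosphorylates SMAD1, SMAD5 and SMAD9. With SMAD4 these enter the nucleus and induce targets that include the ID genes and the inhibitory SMADs, SMAD6 and SMAD7, which feed back on the receptors. ID proteins have a helix-loop-helix domain but no basic DNA-binding region, and hold back the E proteins and other basic helix-loop-helix (bHLH) factors with which they pair. In glioma cells BMP signalling is known for pushing cells towards astroglial differentiation, and ID proteins for maintaining a stem-like state.

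The RefSeq promoter table (GRCh38.p14) held 9 of the 10 genes, BMP2 being the exception. The 250 bases before the RefSeq start are shown for BMPR2, the only one of the 10 called higher, for ID1 and ID3, the most abundant ID genes, and for ID4, which was close to the limit of detection. Each is written 5′ to 3′ on the strand of the gene. Capitals mark matches on either strand to GGCGCC (a GC-rich element bound by BMP SMADs), CANNTG (the E-box bound by bHLH factors) and TATAAA (the TATA box). These windows lie at chr2:202376077-202376326 (BMPR2), chr20:31605039-31605288 (ID1), chr1:23559502-23559751 on the minus strand (ID3) and chr6:19837120-19837369 (ID4).
BMPR2: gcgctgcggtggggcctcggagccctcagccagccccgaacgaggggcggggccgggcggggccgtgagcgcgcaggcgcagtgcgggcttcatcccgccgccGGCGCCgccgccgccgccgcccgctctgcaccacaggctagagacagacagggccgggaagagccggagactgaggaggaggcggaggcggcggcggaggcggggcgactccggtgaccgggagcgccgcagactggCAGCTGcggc
ID1: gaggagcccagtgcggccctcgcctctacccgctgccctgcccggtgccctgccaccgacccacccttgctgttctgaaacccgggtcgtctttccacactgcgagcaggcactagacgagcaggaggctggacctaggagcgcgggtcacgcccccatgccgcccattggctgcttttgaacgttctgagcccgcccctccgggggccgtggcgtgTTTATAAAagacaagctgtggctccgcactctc
ID3: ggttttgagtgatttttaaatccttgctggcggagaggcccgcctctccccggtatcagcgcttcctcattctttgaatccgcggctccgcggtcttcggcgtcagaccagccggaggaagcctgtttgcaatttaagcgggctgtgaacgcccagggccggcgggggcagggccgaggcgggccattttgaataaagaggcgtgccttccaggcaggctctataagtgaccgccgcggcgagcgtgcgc
ID4: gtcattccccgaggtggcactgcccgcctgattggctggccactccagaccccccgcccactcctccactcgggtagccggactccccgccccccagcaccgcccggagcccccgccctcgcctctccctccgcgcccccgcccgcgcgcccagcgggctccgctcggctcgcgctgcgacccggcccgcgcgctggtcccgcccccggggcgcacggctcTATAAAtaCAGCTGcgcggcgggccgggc
The BMPR2 window held 1 GGCGCC, 147 bases before the start, and 1 CANNTG, 10 bases before it. In the ID1 window TATAAA was read on both strands in overlapping positions, 33 and 31 bases before the start. The ID4 window held TATAAA 29 bases before the start and CANNTG 21 bases before it, and the ID3 window held none of these letters. Over all 35116 promoters of the table, 16.4% held GGCGCC, 61.8% held CANNTG and 10.7% held TATAAA in a window of this length. The BMPR2 window was 79.2% G and C with 36 CpG dinucleotides, the ID4 window 78.8% with 34, the ID1 window 66% with 19 and the ID3 window 62% with 24. The medians over all promoters were 58% and 11. A match of letters is a description of the sequence and does not show binding of a factor.

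Total counts lay between 7950190 and 8659796 per library, and 14461 genes passed the filter on low counts. For CBX8 itself, 96, 104 and 83 counts were found in CBX8 KO and 30372, 31408 and 27791 upon re-expression, so the labels of all 6 match the targeted gene. The counts do not separate vector from endogenous CBX8. Of the astroglial and glioma markers, VIM (2730 and 2820 CPM in the 2 groups) and CD44 (2895 and 2506 CPM) were abundant, whereas SOX2, S100B and FABP7 had no count in any library. GFAP (1.82 and 2.92 CPM), OLIG2 (1.78 and 3.22 CPM) and PDGFRA (1.07 and 1.57 CPM) were low, and NES did not reach the filter. CD44 was called lower (edgeR's adjusted p = 0.0097) and the epithelial marker KRT8 higher (0.0081). Summed endothelial markers stayed at or below 0.475 CPM and immune markers at or below 3.69 CPM in every library. Epithelial markers, nearly all KRT8, summed to between 78.8 and 86.8 CPM in CBX8 KO and between 93.9 and 98.9 CPM upon re-expression, and neuronal markers to between 27.0 and 29.2 CPM and between 24.1 and 25.7 CPM. Within the neuronal sum MAP2 fell (17.4 ± 1.70 to 10.6 ± 1.64 CPM, SD, n = 3 each, edgeR's adjusted p = 0.00025), whereas SNAP25 (9.0 and 11.6 CPM) and SYP (1.94 and 2.72 CPM) were not called and lay higher in every re-expression library. VIM, GFAP and OLIG2 also lay higher in every re-expression library without a call. Over all tested genes, 14.4% lay higher in this way, called or not. The part of these shifts in the results that follow was not tested. CPM here means counts scaled to a library size adjusted by TMM, and a called gene is one with an adjusted p under 0.05 from edgeR's quasi-likelihood test over all tested genes.

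Of the 10 genes, 8 were tested, and 2 of them were called as different between WT CBX8 re-expression and CBX8 KO. BMP2 fell 2.42-fold from an already low level, and BMPR2 rose 1.25-fold. None of the ID genes and neither inhibitory SMAD passed the test, although most lay slightly higher upon re-expression. One call among 8 in each direction is 12.5%, beside 6.63% of all tested genes lower and 6.23% higher. The 3 re-expression libraries lay above all 3 CBX8 KO libraries for 4 genes (BMPR2, SMAD6, SMAD7 and ID2) and below them for 1 (BMP2). These are 50% and 12.5% of the 8, beside 14.4% of all tested genes in each of the 2 directions. The median log2 fold change of the 8 was 0.17, and that of all tested genes was 0.00.

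**Figure D1:**
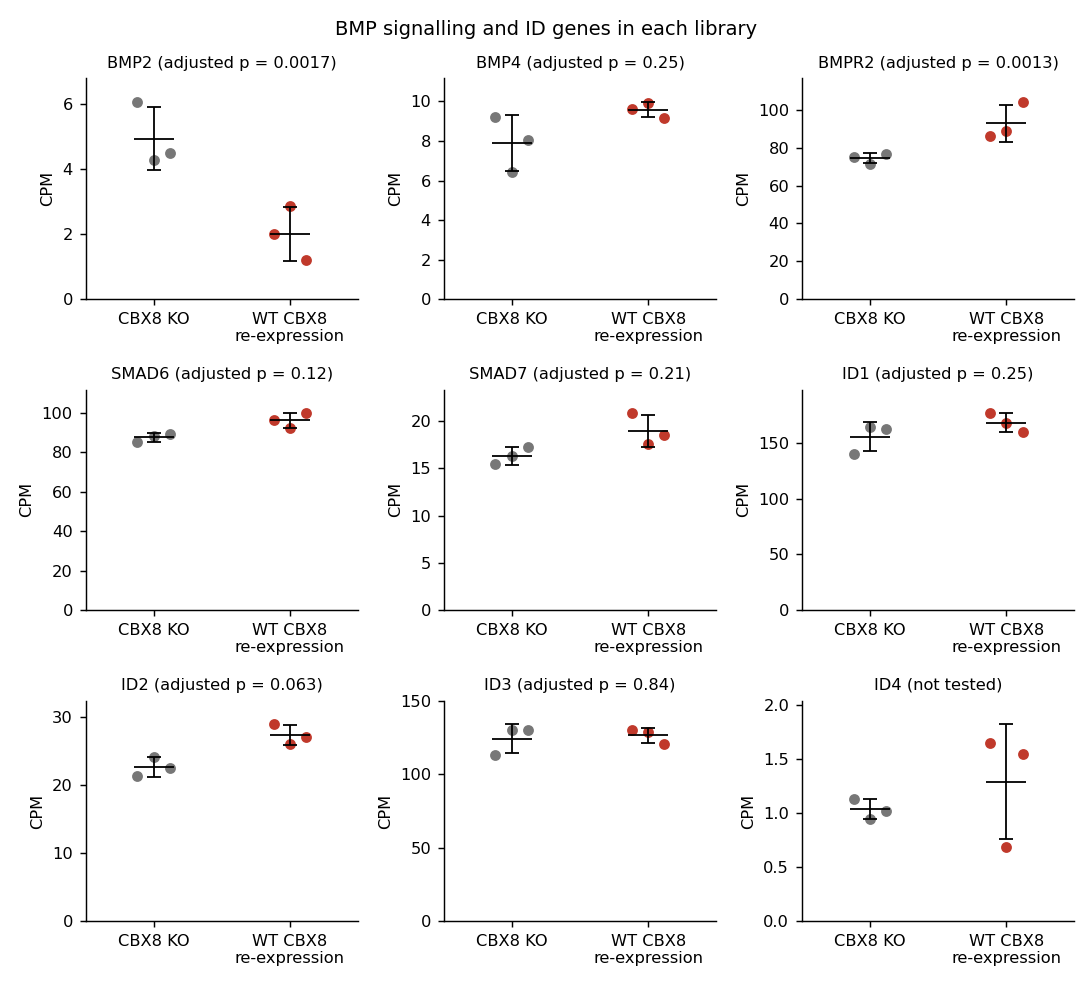
CPM (TMM-adjusted, linear axes from 0) of 9 genes in each of the 3 CBX8 KO (grey) and 3 WT CBX8 re-expression (red) libraries; horizontal lines are means and bars are SD, and panel titles give edgeR's adjusted p. BMP2 separates downwards (at most 2.86 against at least 4.28 CPM) and BMPR2 upwards (at least 86.0 against at most 76.7 CPM), while the groups overlap for BMP4, ID1, ID3 and ID4; GREM1, with 1 count in all, is left out.

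BMP2 is a secreted BMP ligand, encoded at chr20:6767686-6780246 on the plus strand. Its counts were 48, 36 and 35 in CBX8 KO and 17, 25 and 10 upon re-expression. In CPM these were 6.06, 4.28 and 4.48, against 2.00, 2.86 and 1.19. Every re-expression library was thus below every CBX8 KO library, and the re-expression libraries themselves spread more than 2-fold. Mean CPM fell from 4.94 ± 0.98 to 2.01 ± 0.83 (SD, n = 3 each). On the log2 scale the fold change was -1.28 (standard error, SE, 0.27, 95% interval -1.83 to -0.72, edgeR's adjusted p = 0.0017). Only 0.131% of tested genes had a log2 fold change below that of BMP2. At 10 to 48 counts per library, the size of the fall is known less well than its direction. It ranged from -1.62 to -1.02 over the 14 alternative fits, all of which called it, and the lowest and highest came without re-expression replicate 2 and without re-expression replicate 3.

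BMP4, the closest paralog of BMP2 and a ligand of the same receptors, was not called. It lies at chr14:53949736-53958761 on the minus strand and overlaps an unnamed gene on the opposite strand. It had 9.21, 6.42 and 8.06 CPM in the CBX8 KO libraries and 9.64, 9.94 and 9.17 upon re-expression. The highest CBX8 KO library lay within the range of the re-expression libraries. The means were 7.90 ± 1.41 and 9.58 ± 0.39 CPM (SD, n = 3 each), and the log2 fold change was 0.28 (95% interval -0.03 to 0.59, edgeR's adjusted p = 0.25). The interval of BMP4 does not reach that of BMP2. The ratio of BMP4 to BMP2 counts within a library, which no scaling can alter, was 1.52, 1.5 and 1.80 in CBX8 KO and 4.82, 3.48 and 7.70 upon re-expression. These ratios did not overlap, and their exact two-sided permutation p was 0.1, the smallest that 3 libraries against 3 allow (0.133 adjusted over 4 ratios). The 4 ratios were picked after the values had been seen.

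Of the other 12 ligands listed, 1 was abundant enough to test. BMP7, a ligand that acts through the same SMADs, had 50.1, 49.1 and 50.4 CPM in CBX8 KO and 43.0, 43.1 and 40.4 CPM upon re-expression. BMP7 fell by a small margin, with a log2 fold change of -0.24 (SE 0.07, edgeR's adjusted p = 0.024). Its call was lost without any one CBX8 KO library (adjusted p of 0.063, 0.068 and 0.061 without replicates 1, 2 and 3) and without re-expression replicate 3 (adjusted p = 0.093). It was also lost with DESeq2 and with scaling by library size only (adjusted p = 0.091 for each). BMP7 was the most abundant ligand of the list by count. BMP3, BMP10, BMP15 and GDF2 had no count in any library, and the remaining 7 ligands had at most 7 counts in a library.

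Extracellular antagonists bind BMP ligands and keep them from the receptors. GREM1, a secreted antagonist of BMP2 and BMP4 at chr15:32718004-32745106 on the plus strand, had 0 counts in 5 libraries and 1 count in re-expression replicate 2. A count of 0 allows up to 3 counts, or 0.343 to 0.384 CPM in these libraries, counting error alone, so no difference in GREM1 was detectable at this depth. NOG (Noggin), which traps BMP ligands, fell from 12.1 ± 1.05 to 8.29 ± 0.94 CPM (SD, n = 3 each), with a log2 fold change of -0.54 (SE 0.14, edgeR's adjusted p = 0.0079). DESeq2 left NOG just outside the threshold (adjusted p = 0.051).

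FST (follistatin), which binds activins and some BMPs, rose most among the antagonists and modulators tested. It had 20.3, 22.2 and 26.9 CPM in CBX8 KO and 41.8, 42.8 and 39.3 CPM upon re-expression, with a wide gap between the groups. The log2 fold change was 0.84 (SE 0.10, edgeR's adjusted p = 6.1e-07). The follistatin-like FSTL1 rose from 423 ± 17.9 to 564 ± 17.4 CPM, and CRIM1, a membrane protein with cysteine-rich repeats that binds BMPs, from 268 ± 10.5 to 371 ± 18.6 CPM (SD, n = 3 each). Their log2 fold changes were 0.42 and 0.47, with edgeR's adjusted p of 7.6e-07 and 1.8e-07. FST, FSTL1 and CRIM1 were called in all 14 alternative fits. FSTL1 contains MIR198 and overlaps a pseudogene, BTNL12P, on the other strand.

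NBL1 (DAN), an antagonist, had 13.9 ± 0.24 and 17.5 ± 1.37 CPM, and BMP1, a protease that cleaves the antagonist Chordin rather than a BMP ligand, 34.1 ± 2.20 and 40.5 ± 0.86 CPM (SD, n = 3 each). Both were called higher, with log2 fold changes of 0.34 and 0.25 and edgeR's adjusted p of 0.041 and 0.044. These calls were not stable. NBL1 was lost without any library but re-expression replicate 3 (adjusted p from 0.072 to 0.18), and BMP1 without any one of the 6 (0.054 to 0.18). With DESeq2 their adjusted p was 0.21 and 0.15, and with no filter on low counts 0.083 for each. With a replicate block it was 0.070 and 0.076, and limma voom left NBL1 just outside the threshold (0.051). NBL1 also shares its locus with MICOS10 and a MICOS10-NBL1 readthrough gene, whose reads could be divided in more than 1 way. In the list of antagonists and modulators, 9 genes of 21 beside GREM1 were tested. With BMP1 included, 5 (55.6%) rose, 1 (11.1%) fell and 3 (FSTL3, TWSG1 and SOST) were not called. Over all tested genes 6.23% were called higher and 6.63% lower. The median log2 fold change of the 9 was 0.31. CHRD (Chordin) did not reach the filter, with 0, 0 and 1 counts in CBX8 KO and 5, 4 and 7 upon re-expression. The ratio of its summed counts, scaled for library size, was 15.1, with a 95% counting interval from 2.34 to 632. With no filter its log2 fold change was 3.49 (SE 1.04, edgeR's adjusted p = 0.016), a value that depends on the prior count at counts this low. CHRD was singled out after its values had been seen.

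BMPR2, the type II receptor that phosphorylates the type I receptor once a BMP is bound, rose upon re-expression. It lies at chr2:202376327-202567751 on the plus strand, and 1 unnamed gene overlaps it on the same strand. Its CPM was 75.2, 71.4 and 76.7 in CBX8 KO and 86.0, 88.9 and 104 upon re-expression. Re-expression replicate 3 was the highest, and even the lowest re-expression library exceeded every CBX8 KO library. The means were 74.4 ± 2.72 and 93.0 ± 9.75 CPM (SD, n = 3 each), and the difference on the log2 scale was 0.32 (SE 0.07, 95% interval 0.19 to 0.46, edgeR's adjusted p = 0.0013). Without re-expression replicate 3 the log2 fold change was 0.23 (adjusted p = 0.018), the smallest of the 14 alternative fits, all of which called BMPR2.

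None of the type I receptors was called. BMPR1A had 50.3 ± 1.69 and 51.7 ± 3.92 CPM and ACVR1 32.7 ± 1.6 and 33.5 ± 2.54 CPM (SD, n = 3 each), with log2 fold changes of 0.04 and 0.03. BMPR1B had no count in any library. For BMPR1A the 95% interval of -0.11 to 0.19 barely overlaps that of BMPR2, and for ACVR1 it was -0.15 to 0.22. The type I receptor ACVRL1 had a log2 fold change of 0.22 (edgeR's adjusted p = 0.35). Its 95% interval of -0.07 to 0.52 covers that of BMPR2. The other type II receptors, ACVR2A and ACVR2B, were not called at log2 fold changes of -0.25 and 0.33 (edgeR's adjusted p = 0.15 and 0.32).

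Among co-receptors and decoys, BAMBI, a pseudoreceptor without a kinase domain that BMP signalling induces, fell from 138, 150 and 133 CPM to 108, 97.9 and 106 CPM. Its log2 fold change was -0.43 (SE 0.06, edgeR's adjusted p = 4.8e-06). NEO1 (Neogenin), a receptor for the BMP co-receptors of the RGM family, fell from 29.4 ± 2.18 to 20.9 ± 0.87 CPM (SD, n = 3 each), at -0.49 (edgeR's adjusted p = 0.00087). Both genes lay lower in every re-expression library, as did 14.4% of all tested genes, and both were called in all 14 alternative fits. ENG (Endoglin), a TGF-beta family co-receptor, had 256 ± 13 and 285 ± 12.8 CPM (SD, n = 3 each) and was called higher at 0.15 (edgeR's adjusted p = 0.048). The ENG call was lost without CBX8 KO replicate 1 or 2 (adjusted p = 0.20 and 0.14) and without re-expression replicate 1 or 3 (0.14 and 0.16). It was also lost with RLE scaling (0.054), with no filter (0.071), with the stricter filter (0.050), with DESeq2 (0.097) and with a replicate block (0.085). In all, of the 12 receptors and co-receptors other than BMPR2, 9 were tested. Of these, 1 (11.1%) rose and 2 (22.2%) fell, beside 6.23% and 6.63% of all tested genes.

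The inhibitory SMADs lay higher in every re-expression library, as did 14.4% of all tested genes, without passing the test. SMAD6, which blocks BMP receptor signalling preferentially, lies at chr15:66702236-66782849 on the plus strand. Its CPM was 85.2, 88.4 and 89.2 in CBX8 KO and 96.3, 92.4 and 99.8 upon re-expression. The groups were separate, but only by a small margin. SMAD6 thus differed by 0.13 on the log2 scale (SE 0.06, 95% interval 0.02 to 0.25), with edgeR's adjusted p = 0.12. SMAD7, which blocks both BMP and TGF-beta receptors, lies at chr18:48919853-48950965 on the minus strand. Its CPM was 15.4, 16.3 and 17.3 in CBX8 KO and 20.8, 17.6 and 18.5 upon re-expression. Again the groups were separate, with the lowest re-expression library close to the highest CBX8 KO library. The log2 fold change was 0.22 (SE 0.11, 95% interval -0.01 to 0.44), with edgeR's adjusted p = 0.21. The ratio of SMAD6 to SMAD7 counts overlapped between groups, at 5.53, 5.43 and 5.16 in CBX8 KO and 4.63, 5.25 and 5.41 upon re-expression (exact two-sided permutation p = 0.4).

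The receptor-activated SMADs were not called. SMAD5, the most abundant of them by count, had 153 ± 2.71 and 147 ± 5.66 CPM (SD, n = 3 each) and a log2 fold change of -0.05 (95% interval -0.16 to 0.05). SMAD1 had -0.26 (edgeR's adjusted p = 0.19), SMAD9, itself a BMP target, 0.29 (0.15) and the shared partner SMAD4 0.11 (0.44). Of the 20 SMADs and regulators other than SMAD6 and SMAD7, 19 were tested. Of these, 3 (15.8%) rose and 1 (5.26%) fell, beside 6.23% and 6.63% of all tested genes. SKI and SKIL, nuclear co-repressors of SMADs, rose from 86.4 ± 2.72 to 97.4 ± 4.32 CPM and from 64.1 ± 3.75 to 73.4 ± 2.15 CPM (SD, n = 3 each). Their log2 fold changes were 0.17 and 0.19, with edgeR's adjusted p of 0.045 and 0.037. YAP1, a Hippo pathway co-activator that can bind SMAD1, rose by 0.19 (edgeR's adjusted p = 0.019), and SMURF2, a ubiquitin ligase recruited by inhibitory SMADs, fell by 0.17 (0.037). Each of these 4 calls was lost without at least 1 single library. SKI was lost without any one of the 6 (adjusted p from 0.054 to 0.16) and SKIL without any but CBX8 KO replicate 1 (0.053 to 0.17). YAP1 was lost without CBX8 KO replicate 2 or 3 or re-expression replicate 2 or 3 (0.052 to 0.13), and SMURF2 without replicate 1 or 2 of either group (0.083 to 0.18). DESeq2 also left SKI (0.17), SKIL (0.16) and SMURF2 (0.10) outside the threshold. No filter left out SKI (0.11) and SKIL (0.083), and limma voom SKI (0.060). Scaling by upper quartile (0.055) or library size only (0.15) left out SMURF2. A replicate block left out all 4 (0.089 for SKI, 0.070 for SKIL, 0.053 for YAP1 and 0.077 for SMURF2). SMURF2 overlaps CEP95 on the opposite strand, and whether counting used strand is not given in the sources used here.

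**Figure D2:**
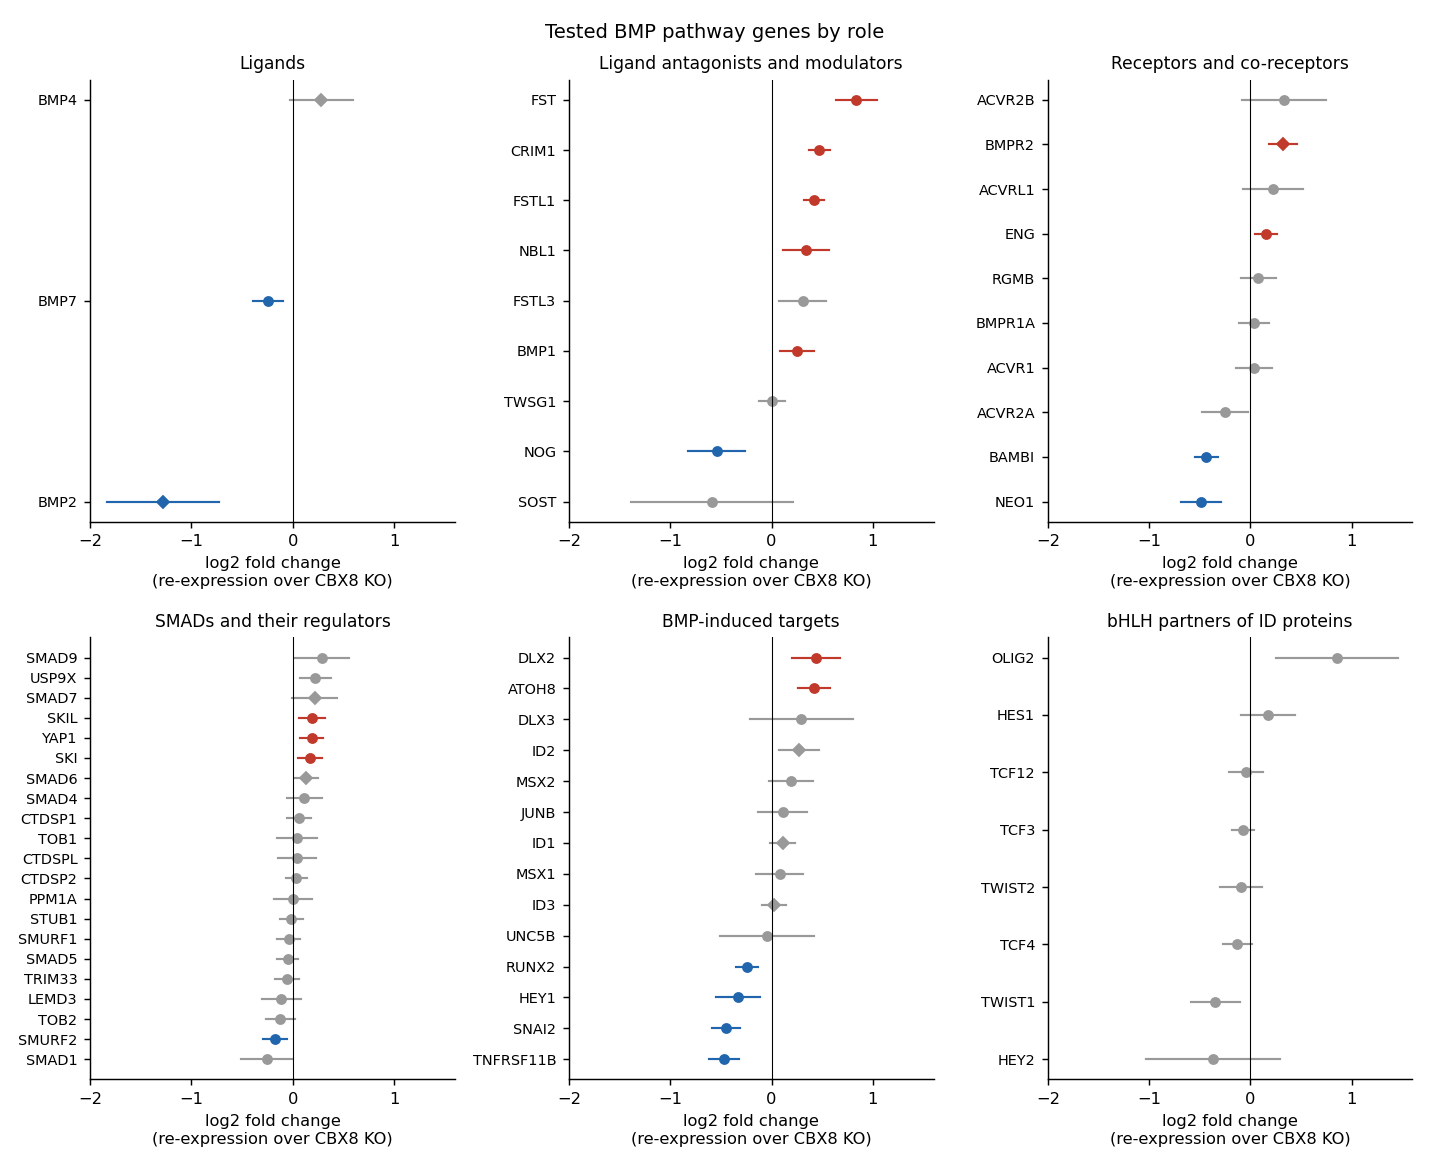
Log2 fold change (WT CBX8 re-expression minus CBX8 KO) of the tested genes of each pathway list, 1 point per gene in 1 panel per role, with bars for 95% intervals; diamonds are the 10 main genes where tested, red and blue are called higher and lower at an adjusted p under 0.05 and grey is not called. Genes of 2 lists (BAMBI, SMAD6, SMAD7 and SMAD9) are drawn once; 5 of 9 antagonists and modulators are called higher and no bHLH partner is called.

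The ID genes are immediate targets of BMP SMADs. ID1 lies at chr20:31605283-31606515 on the plus strand. Its CPM was 140, 164 and 162 in CBX8 KO and 176, 168 and 159 upon re-expression. The ranges overlapped, with the lowest re-expression library under 2 of the 3 CBX8 KO libraries. The means were 155 ± 13.3 and 168 ± 8.51 CPM (SD, n = 3 each), and the difference on the log2 scale was 0.11 (SE 0.06, 95% interval -0.01 to 0.23, edgeR's adjusted p = 0.25).

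ID3, at chr1:23557926-23559501 on the minus strand, had the log2 fold change closest to 0 among the 8 of the 10 main genes that were tested. Its CPM was 113, 130 and 130 in CBX8 KO and 130, 129 and 120 upon re-expression, so both groups covered nearly the same range. The log2 fold change was 0.03 (SE 0.06, 95% interval -0.09 to 0.15, edgeR's adjusted p = 0.84). CBX8 KO replicate 1 was the lowest library for ID1, ID2 and ID3, and without it the ID3 value turned to -0.04 (adjusted p = 0.72).

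ID2, at chr2:8678845-8684461 on the plus strand, came closest to a call among the ID genes. Its CPM was 21.3, 24.1 and 22.5 in CBX8 KO and 28.9, 26.0 and 27.0 upon re-expression. All 3 re-expression libraries exceeded all 3 CBX8 KO libraries, as for 14.4% of all tested genes. The means were 22.7 ± 1.40 and 27.3 ± 1.46 CPM (SD, n = 3 each), and the difference on the log2 scale was 0.27 (SE 0.10, 95% interval 0.07 to 0.46, edgeR's adjusted p = 0.063). ID2-AS1 overlaps ID2 on the opposite strand. Scaling by library size alone instead of TMM put ID2 and SMAD6 past the threshold, at log2 fold changes of 0.32 and 0.19 (adjusted p = 0.026 and 0.024). Under that scaling 1400 of all tested genes were called higher and 592 lower, against 901 and 959 with TMM.

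ID4, at chr6:19837370-19842197 on the plus strand, had 9, 8 and 8 counts in CBX8 KO and 14, 6 and 13 upon re-expression, and fell below the filter. With no filter its log2 fold change was 0.30 (SE 0.41, edgeR's adjusted p = 0.73), so a difference was not detectable at this depth. The summed CPM of the 4 ID genes was 276, 319 and 316 in CBX8 KO and 337, 323 and 308 upon re-expression, with overlapping ranges.

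The ID genes kept unequal proportions within a library. The ratio of ID1 to ID3 counts was 1.24, 1.26 and 1.25 in CBX8 KO and 1.35, 1.30 and 1.32 upon re-expression. The ratio of ID1 to ID2 was 6.57, 6.79 and 7.21 in CBX8 KO and 6.10, 6.44 and 5.89 upon re-expression. Neither ratio overlapped between groups, the first being higher and the second lower upon re-expression. For each the exact two-sided permutation p was 0.1, the smallest possible (0.133 adjusted over the 4 ratios). The within-group SD of the ID1 to ID3 ratio was 0.0107 in CBX8 KO and 0.0246 upon re-expression. Across the 6 libraries, log2 CPM of ID1 and ID3 had a Pearson r of 0.905, as a description over points that share library and depth. For ID1 and ID2 it was 0.781, and for ID2 and ID3 0.447.

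**Figure D3:**
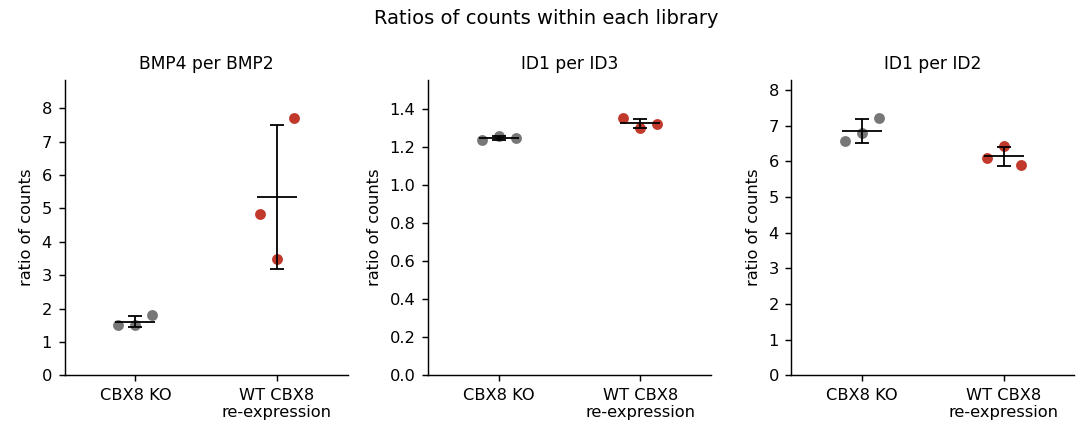
Ratio of counts of 2 genes within each library (linear axes from 0) for CBX8 KO (grey) and WT CBX8 re-expression (red); horizontal lines are means and bars are SD over 3 libraries. The BMP4 to BMP2 ratio averages 1.61 in CBX8 KO and 5.33 upon re-expression, the ID1 to ID3 ratio 1.25 and 1.33, and the ID1 to ID2 ratio 6.86 and 6.14, none of them overlapping between groups.

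Levels between genes were compared as CPM per kilobase of the GENCODE canonical transcript. In CBX8 KO the order was ID1 (158), ID3 (131), SMAD6 (22.9), ID2 (17.4), BMPR2 (6.17), SMAD7 (4.88), BMP4 (4.09), BMP2 (1.39) and ID4 (0.268). The order upon re-expression was the same, from ID1 (171) and ID3 (133) through SMAD6 (25.1), ID2 (21.0), BMPR2 (7.71), SMAD7 (5.67) and BMP4 (4.96) to BMP2 (0.568) and ID4 (0.334). Neighbours in this order did not overlap between their 3 libraries, except SMAD7 and BMP4 in CBX8 KO and BMP2 and ID4 upon re-expression. ID1 and ID3 thus stood far above the ligands and the receptor on this scale.

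**Figure D4:**
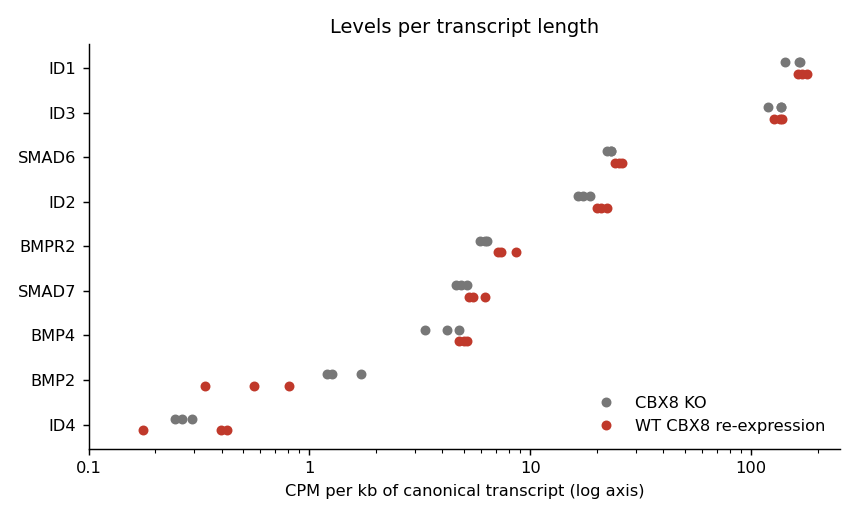
CPM per kilobase of canonical transcript (log axis) of 9 genes, ordered by level, with 1 point per library for CBX8 KO (grey) and WT CBX8 re-expression (red). ID1 and ID3 lie at or above 119 CPM per kilobase in every library, whereas the BMP2 mean falls from 1.39 to 0.568, with the lowest re-expression library (0.336) inside the range of ID4.

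For each tested ID gene, the 3 genes with the most similar profile over the 6 libraries were looked up among the 13587 tested genes whose log2 CPM averaged 1 or more. For ID1 these were AC234917.2 (Pearson r of log2 CPM 0.998), AC087752.4 (0.988) and PSAP (0.986). For ID2 they were PHLDA3 (0.994), SELENOH (0.992) and TNFSF12 (0.990), of which SELENOH and TNFSF12 were themselves called higher, at log2 fold changes of 0.41 and 0.52 (edgeR's adjusted p = 0.0097 and 0.022). For ID3 they were SNX32 (0.987), PIGS (0.986) and AC090984.1 (0.984), none of which was called. With 6 points and this many genes, such high values are a description of the profiles and carry no p.

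Other genes that BMP signalling is known to induce moved in both directions. Of 16 listed targets other than the 10 main genes, 13 were tested. Of these, 2 (15.4%) rose and 5 (38.5%) fell, beside 6.23% and 6.63% of all tested genes. Their median log2 fold change was 0.08. ATOH8, a bHLH factor downstream of BMP SMADs, had 35.5, 39.1 and 37.4 CPM in CBX8 KO and 53.0, 49.1 and 48.0 CPM upon re-expression. ATOH8 rose by 0.42 on the log2 scale (SE 0.08, edgeR's adjusted p = 0.00035). DLX2, a homeobox factor, rose from 14.8 ± 2.26 to 20.2 ± 1.19 CPM (SD, n = 3 each), at 0.44 (edgeR's adjusted p = 0.010). The DLX2 call was lost without CBX8 KO replicate 1 (adjusted p = 0.076) and without re-expression replicate 2 (0.057).

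The targets that fell were BAMBI, described with the receptors, and HEY1, RUNX2, TNFRSF11B and SNAI2. RUNX2, the osteoblast transcription factor, had 123, 120 and 118 CPM in CBX8 KO and 101, 102 and 104 CPM upon re-expression, a log2 fold change of -0.24 (SE 0.05, edgeR's adjusted p = 0.0022). TNFRSF11B (osteoprotegerin, a decoy receptor for RANKL) fell from 191 ± 16.3 to 138 ± 19.8 CPM and SNAI2 (Slug, a zinc-finger repressor) from 91.1 ± 8.65 to 66.8 ± 3.34 CPM (SD, n = 3 each). Their log2 fold changes were -0.47 and -0.45, with edgeR's adjusted p of 4.8e-05 and 2.5e-05. These 3 genes and ATOH8 were called in all 14 alternative fits. HEY1, a bHLH repressor that Notch signalling also induces, fell by 0.33 on the log2 scale (edgeR's adjusted p = 0.038). The HEY1 call was lost without replicate 2 or 3 of either group (adjusted p = 0.15 and 0.10 for CBX8 KO, 0.18 and 0.093 for re-expression). It was also lost with DESeq2 (0.16), with scaling by library size only (0.094) and with a replicate block (0.077). MSX1, MSX2, DLX3, UNC5B, JUNB and SMAD9 were not called. MSX2 and SMAD9 still lay higher in every re-expression library, as did 14.4% of all tested genes.

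Over the 5 pathway lists without the 10 main genes, 79 symbols were in the table and 49 were tested. Of these, 11 (22.4%) rose and 9 (18.4%) fell, beside 6.23% and 6.63% of all tested genes, and the median log2 fold change was 0.04. Calls in both directions made up similar shares.

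The bHLH proteins that ID proteins pair with, or whose partners they bind, held no called gene among 8 tested of 13, beside 6.23% of all tested genes higher and 6.63% lower, so a count of 0 among 8 is near the background. The E protein genes TCF3, TCF4 and TCF12 had log2 fold changes of -0.07, -0.13 and -0.04 (edgeR's adjusted p from 0.24 to 0.80). OLIG2, a glial lineage factor, had 14, 14 and 15 counts in CBX8 KO and 26, 38 and 19 upon re-expression, a log2 fold change of 0.85 that did not pass (edgeR's adjusted p = 0.056). TWIST1, a mesenchymal factor, had 15.7 ± 0.65 and 12.3 ± 1.54 CPM (SD, n = 3 each) and -0.35 (0.055). OLIG2 lay higher in every re-expression library, and TCF4 and TWIST1 lower. These are 12.5% and 25% of the 8, beside 14.4% of all tested genes in each direction. OLIG1, an oligodendroglial factor, NEUROG2 and NEUROD1, which are neuronal factors, and MYOD1, a myogenic factor, had no count in any library.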

How the data were processed

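Counts were read for 6 RNA-seq libraries, 3 per group, with groups taken from the sample titles. The deposited values are raw counts for each gene symbol, which the authors left unnormalized. Before that, from the study's methods and the submitters' processing notes, poly(A) RNA was sequenced as paired-end reads on a BGISEQ-500, trimmed with Trimmomatic and aligned to hg38 with HISAT2. Tool versions, and how and on which annotation and strand reads were counted, are not given in the sources used here, so reads of overlapping or antisense genes could be assigned in more than 1 way. Depth was 7950190 to 8659796 counts per library, without molecular identifiers, so intervals from counts cover counting error only. Counts of libraries of a group differed beyond sampling noise (chi-square per degree of freedom 1.96 to 2.90), and all 6 were kept.

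In R 4.3.3, genes were filtered with filterByExpr and scaled by TMM in edgeR 4.0.16, and tested by glmQLFit and glmQLFTest with group as the only term, following the study's use of edgeR. P-values were adjusted by Benjamini-Hochberg over the 14461 genes, with a threshold of 0.05. Standard errors are the absolute log2 fold change over the square root of F. The procedure was run on simulated counts drawn from the means and dispersions of this fit, so it could not reveal a misfit. Alternatives were scaling by RLE, by upper quartile and by library size only, 2 other filters, DESeq2 1.42.0, limma 3.58.1 voom, a threshold of 0.01, a replicate block and each library left out. Named genes were the 10 genes, CBX8, every called gene of the pathway lists and any listed gene whose missing counts or call are stated. The genes and lists were chosen with earlier results of these data known. Coordinates and transcript lengths are from GENCODE 44 (hg38), and no other locus on the main chromosomes matched at least 95% of a main gene's transcript in minimap2. Promoters are from RefSeq (GRCh38.p14). The result of 1 listed gene is not reported here.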

Additional observations from a re-analysis of the deposited data

How the results depend on the processing

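BMP2 and BMPR2 were called in the same direction in all 14 alternative fits, and so were FST, FSTL1, CRIM1, BAMBI, NEO1, ATOH8, RUNX2, TNFRSF11B and SNAI2. Over the 28 tested genes given with alternatives, 315 fits kept direction and side of the threshold, 74 lost a call, 2 gained one and 1 reversed. The gains were ID2 and SMAD6 with library size only, which made 3 of the 10 genes higher instead of 1. The reversal was ID3, whose log2 fold change ran from -0.040 to 0.058 with single libraries left out. Among other pathway genes, the 11 called higher became 6 with DESeq2, 5 at a threshold of 0.01, 5 with the replicate block, and 5 to 7 with single libraries left out, and the 9 called lower became 5 with DESeq2. Over all genes, DESeq2 called 676 lower and 501 higher, the threshold of 0.01 gave 569 and 489, and leaving out re-expression replicate 2 gave 635 and 593. The cause of these differences was not tested, beyond the fewer libraries and stricter threshold themselves. Same-numbered libraries did not deviate together (r = -0.12, -0.04 and -0.02 over 13588 genes), so the numbers were not taken as pairs. With the replicate block 766 genes were lower and 739 higher. Depth limits BMP2, ID4, GREM1 and CHRD most, at under 50 counts per library.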
